A study of Mus musculus with 2 samples.

Results

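The classical cadherin and delta protocadherin genes were examined for sites occupied by ISL1, a LIM-homeodomain transcription factor, in wild-type mouse retina at embryonic day 13.5. The 30 genes, of 21887 protein-coding genes on chromosomes 1 to 19, X and Y, comprised 20 cadherins and 10 delta protocadherins. Each was taken as its RefSeq gene span (GRCm38.p6, the assembly of build mm10) with 50 kb added on both sides. Because the regions of Cdh1 and Cdh3 overlap, the 30 genes gave 29 separate regions covering 11.0 Mb. These regions held 468 of 123923 intervals in replicate 1 and 593 of 158881 in replicate 2.

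The data were a single group of 2 replicate libraries of whole retina, made by CUT&Tag, an assay that brings the transposase Tn5 to an antibody bound in nuclei and sequences the DNA tagged there. All retinas were wild type. Rabbit antibodies from 2 suppliers are listed, with no record of which library each served or of how many animals or litters were used. No control antibody or mutant was analysed here, and with 1 group no test between conditions was possible. Each list gives intervals with 2 signal columns and no header. From their layout and values these were read as total signal (coverage summed over the bases) and maximum signal (highest coverage), and all values of evenness and rank rest on that reading. Read depth is unknown, so signals were read within each list and not compared in size across the lists. Cut-offs of maximum signal were applied alike to both lists and may differ in strictness between them. Retina is a mixture of cells, so a site occupied in few cells and a weakly occupied site in many cells cannot be told apart.

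Cadherins are calcium-dependent adhesion proteins of the cell surface. Classical cadherins bind like molecules on neighbouring cells and hold on to actin through catenins, with type I members such as N-cadherin joining whole epithelia and type II members marking subsets of neurons. Delta protocadherins are non-clustered relatives with long cytoplasmic tails that act in cell sorting, axon growth and circuit wiring. In developing retina, N-cadherin holds the neuroepithelium together, while type II cadherins and delta protocadherins help set which neurons connect.

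With any overlap between the lists counted, the cadherin family as a whole did not differ beyond counting error from the genome in shared ISL1 peaks per Mb, and it had a single peak that stood high in both lists, at the end of Cdh11. A shared peak joins the intervals of both lists that have at least 1 bp in common. The member regions held 50 shared peaks, or 4.55 per Mb (exact Poisson 95% interval 3.38 to 6.003), against 5.03 per Mb over the genome, a ratio of 0.905 (0.671 to 1.19). This depended on the overlap rule: the ratio was 0.586 with a reciprocal overlap of 50% (14 peaks) and 0.638 with midpoints within 200 bp (25 peaks). Intervals of replicate 1 numbered 42.6 per Mb in the member regions and 45.5 per Mb in the genome. Those of replicate 2 numbered 54.0 and 58.4 per Mb. The ratio to the genome was 0.931 ± 0.008 (SD, n = 2). The genome value also counts sequence far from genes. Regions of all protein-coding genes, with the same 50 kb flanks, held 5.81 shared peaks per Mb, which the members' Poisson interval includes. They held 50.6 and 61.8 intervals per Mb in replicates 1 and 2. The Poisson and Wilson intervals reflect counting error of peaks alone.

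At least 1 shared peak was found for 21 of the 30 members. The background was 55.4% of all protein-coding genes and 76.9% of the 2429 genes with a span of at least 100 kb, against 70.0% of the members, whose median span was 126 kb. The median number of shared peaks per Mb was 3.95 over the members, 5.55 over all protein-coding genes and 4.47 over the genes of long span. The exact Poisson interval of every single member included the genome value, so at this number of peaks no member's density could be set apart from it.

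The DNA before 3 start sites is shown first. Cdh18 and Pcdh19 are shown because a shared peak reaches the bases just upstream, and Pcdh10 because it had the best-ranked interval of replicate 2 alone near a start site. The 3 were chosen after their values were seen, and unshared intervals also covered start sites of Cdh7, Cdh9, Cdh10 and Pcdh9. Start sites and strands were given by RefSeq for 19 of the 30 members. The listed start site of Cdh18 lies inside its annotated gene span and not at an end of it. The sequences run 5′ to 3′ on the strand of the gene, end at the base before the start site (for Pcdh19 at the base before the annotated gene span), and have in capitals the bases inside an interval of either list.
Cdh18, chr15:23036213-23036462, plus strand: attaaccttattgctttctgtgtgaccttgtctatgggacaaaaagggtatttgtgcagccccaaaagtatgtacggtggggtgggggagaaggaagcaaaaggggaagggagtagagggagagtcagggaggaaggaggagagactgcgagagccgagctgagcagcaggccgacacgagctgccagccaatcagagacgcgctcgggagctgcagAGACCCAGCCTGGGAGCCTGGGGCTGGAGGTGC
Pcdh10, chr3:45378148-45378397, plus strand: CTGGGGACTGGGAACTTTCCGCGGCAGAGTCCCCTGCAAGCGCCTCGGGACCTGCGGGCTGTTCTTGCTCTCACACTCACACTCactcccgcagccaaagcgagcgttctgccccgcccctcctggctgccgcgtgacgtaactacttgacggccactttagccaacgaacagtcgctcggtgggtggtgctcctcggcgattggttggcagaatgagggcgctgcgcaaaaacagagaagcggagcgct
Pcdh19, chrX:133689045-133689243, minus strand: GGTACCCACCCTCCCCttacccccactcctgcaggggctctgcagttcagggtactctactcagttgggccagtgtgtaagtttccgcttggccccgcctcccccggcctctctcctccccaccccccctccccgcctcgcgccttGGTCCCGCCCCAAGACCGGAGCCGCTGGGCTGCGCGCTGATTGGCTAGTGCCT
In Cdh18 the capitals are 33 bases of a replicate 1 interval, in Pcdh10 they are 84 bases of a weaker, neighbouring replicate 2 interval, and in Pcdh19 they are 69 bases, 67 of them in replicate 1 and 27 in replicate 2. The 4-base homeodomain core TAAT, read on both strands, occurred once in the Cdh18 window, outside the capitals, and 0 times in the others. The LIM-homeodomain motif CTAATG, which contains TAAT, was in none of the 3. Over the 250 bases before the first listed start site, TAAT was found for 52.6% of the 19 members and 55.3% of 27025 genes. CTAATG was found for 1 member, Cdh20 (5.26%), against 6.48% of those genes. The 27025 are all genes with a listed start site, without the limit to protein-coding genes used elsewhere. The median share of G and C bases was 60.8% for the members and 52% for the 27025, and its bearing on the motif shares was not tested. The motif counts are matches of letters and not measured sites.

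**Figure D1:**
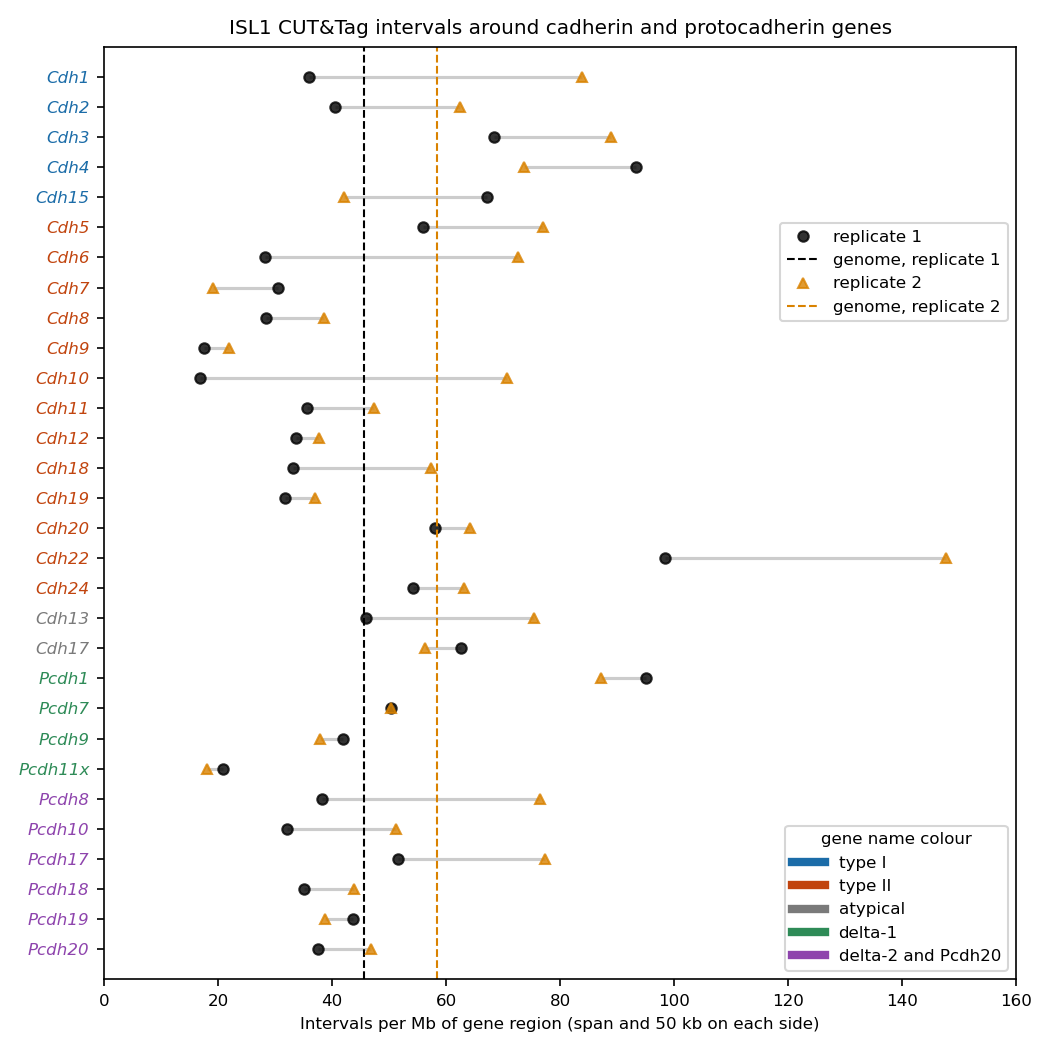
Intervals per Mb of the gene region (horizontal axis) for each of the 30 members (rows) in replicate 1 (circles) and replicate 2 (triangles), with the genome value of each list as a dashed line. Cdh22 is highest in both lists, at 98.5 and 148 per Mb, and Cdh9 and Pcdh11x lie below 25 per Mb in both.

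Interval density varied several-fold among members and was higher where more genes lay nearby. Over the 30 members it ran from 16.8 (Cdh10) through a median of 39.4 to 98.5 per Mb (Cdh22) in replicate 1, and from 18.0 (Pcdh11x) through 56.8 to 148 per Mb (Cdh22) in replicate 2. The lists ranked members alike in part, with a Spearman rho of 0.584 over 30 members. Density lay below the genome in both lists for 13 members, above it in both for 9 and on different sides for 8. The mean density correlated with the number of protein-coding genes in a 1 Mb window centred on the gene (Spearman rho 0.614, n = 30). These correlations are across genes whose regions share the same 2 libraries, and whether gene density or base composition accounts for the spread was not tested.

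The members whose counts differed most between the lists as a ratio were Cdh10, Cdh6 and Cdh1. Cdh10 had 5 intervals in replicate 1 and 21 in replicate 2. Cdh6, a type II cadherin used by a subset of ganglion cells to find their targets, had 7 and 18. Cdh1, which encodes E-cadherin of epithelia, had 6 and 14. All 3 were low in replicate 1 and above the genome value in replicate 2. On the X chromosome, where the whole chromosome held 30.8 and 45.4 intervals per Mb, Pcdh11x had 20.8 and 18.0 per Mb and Pcdh19 had 43.7 and 38.8 per Mb.

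**Figure D2:**
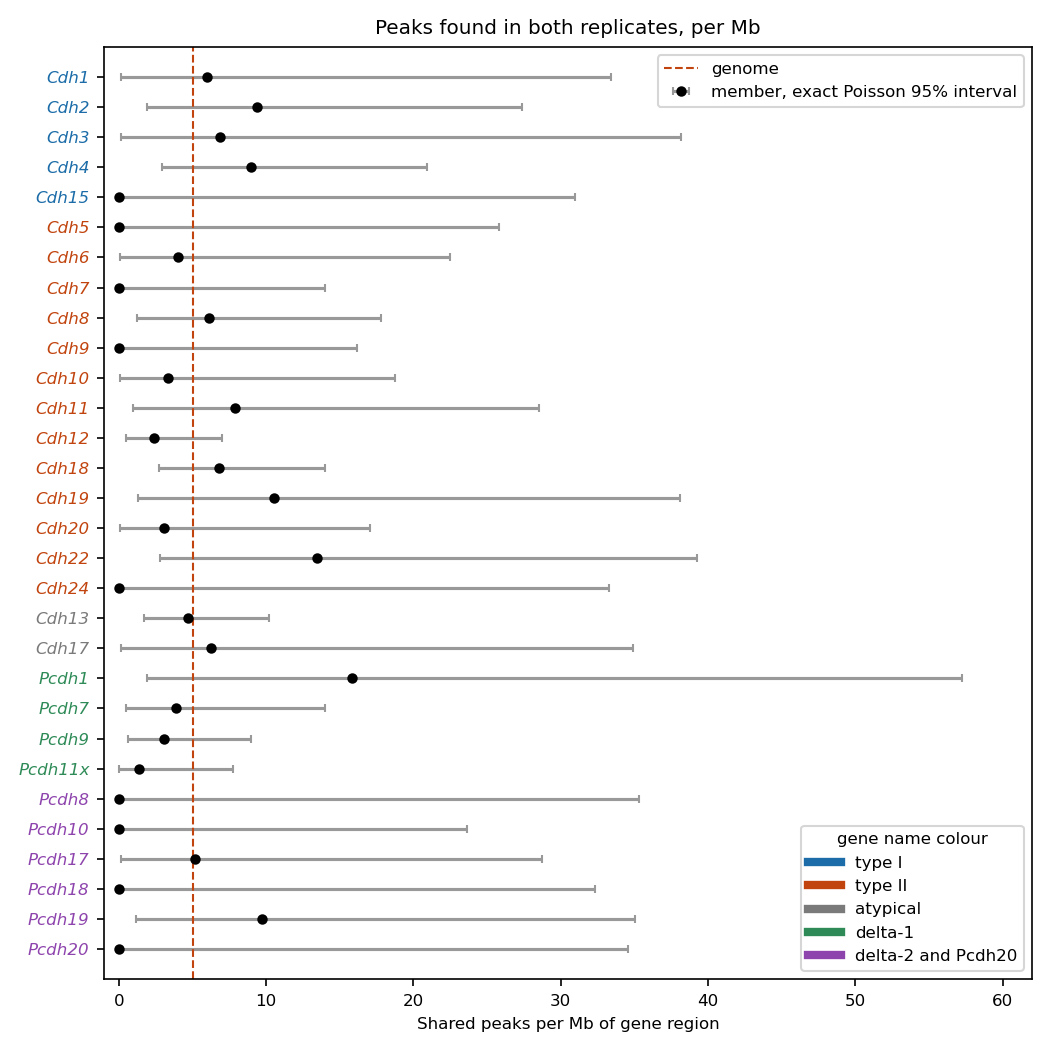
Shared peaks per Mb of the gene region (horizontal axis) for each of the 30 members (rows), with exact Poisson 95% intervals as bars and the genome value of 5.03 per Mb as a dashed line. Every bar spans the genome value, and 9 members sit at 0.

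Type I cadherins had the highest density of intervals of the 5 subfamilies when the 2 lists were averaged, at 68.1 ± 0.563 per Mb (SD, n = 2), against 60.6 ± 18.1 for the atypical genes, which were higher in replicate 2. Their 4 regions held 67.7 per Mb in replicate 1 and 68.5 per Mb in replicate 2, and 9 shared peaks, or 7.17 per Mb (3.28 to 13.6). Cdh4 alone held 52 of the 85 type I intervals in replicate 1, 41 of 86 in replicate 2 and 5 of the 9 shared peaks. The type I values therefore rested largely on that gene. Type II cadherins, with 13 genes, had 36.4 and 52.4 per Mb and 23 shared peaks (4.55 per Mb, 2.88 to 6.83). The atypical Cdh13 and Cdh17 had 47.8 and 73.4 per Mb and 7 shared peaks (4.85 per Mb, 1.95 to 9.98). The delta-1 protocadherins Pcdh1, Pcdh7, Pcdh9 and Pcdh11x had 40.1 and 37.1 per Mb and 8 shared peaks (3.41 per Mb, 1.47 to 6.73). The delta-2 protocadherins, counted with Pcdh20, had 40.8 and 55.6 per Mb and 3 shared peaks (3.40 per Mb, 0.702 to 9.94). All 5 intervals for shared peaks overlap each other and the genome value.

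Cdh11, which encodes a type II cadherin best known from mesenchyme and bone, carried the strongest shared peak of the family. This peak, at chromosome 8, 102784870 to 102785999, overlapped the higher-coordinate end of the gene span (102632095 to 102785493). The maximum signal was 42 in replicate 1 and 48 in replicate 2, and the intervals stood in the top 0.764% and the top 0.118% of their lists by total signal. The peak ranked 135 of 13704 shared peaks by the mean of its ranks in the 2 lists. The strand of Cdh11 is not given by the promoter table used here.

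Uneven coverage was found in both lists only at this Cdh11 peak among the members. An interval is uneven when its total signal is under 0.95 of its width times its maximum signal, which needs more than 1 distinct fragment; at Cdh11 the ratio was 0.448 in replicate 1 and 0.596 in replicate 2. A pair uneven in both lists lay within 50 kb of 1 of 30 members (3.33%), against 7.53% of all protein-coding genes and 13.2% of genes with a span of at least 100 kb. The 2 intervals overlapped by 382 bp, which is 49.4% of the replicate 1 interval and 51.7% of the replicate 2 interval, so the pair fell short of a reciprocal overlap of 50%. A further Cdh11 peak, 73276 bp inside the gene at 102705027 to 102705716, was flat in both lists, with maximum signals of 8 and 18.

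Cdh2, which encodes N-cadherin, the main classical cadherin of neural tissue, had 3 shared peaks, all within its span on chromosome 18 (16588877 to 16809246), or 9.36 per Mb. The peak at 16808537 to 16809362 overlapped the higher-coordinate end of the gene, with maximum signals of 29 and 22. It was uneven in replicate 1, where it stood in the top 3.28%, and nearly flat in replicate 2, in the top 39.1%. A peak 95647 bp inside the gene, at 16713070 to 16714128, had maximum signals of 35 and 15 and stood in the top 0.182% of replicate 1 and the top 31.0% of replicate 2. The third had maximum signals of 1 and 16. Both leading Cdh2 peaks were thus much higher in the replicate 1 list than in the replicate 2 list.

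Cdh4 encodes R-cadherin, named for the retina, and had 5 shared peaks in its 457 kb span on chromosome 2, or 8.98 per Mb. None lay at a gene end. The best, at 179520888 to 179521634, had maximum signals of 7 and 31, was flat in replicate 1 and uneven in replicate 2, and ranked 1566. A neighbouring peak at 179519147 to 179519987 had maximum signals of 15 and 7. The peak at 179590016 to 179590866 had 14 and 10. At the lower-coordinate end of Cdh4 each list had an interval within 1 kb of the end, but these were 615 bp apart and did not overlap.

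The remaining type I genes had few shared peaks. Cdh1 and Cdh3, neighbours on chromosome 8 that encode E- and P-cadherin of epithelia, had the same single shared peak between them, 1649 bp outside Cdh1 at 106601344 to 106602059. Its maximum signals were 21 and 3. Cdh15, which encodes M-cadherin of muscle, had none, which allows up to 31.0 per Mb.

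**Figure D3:**
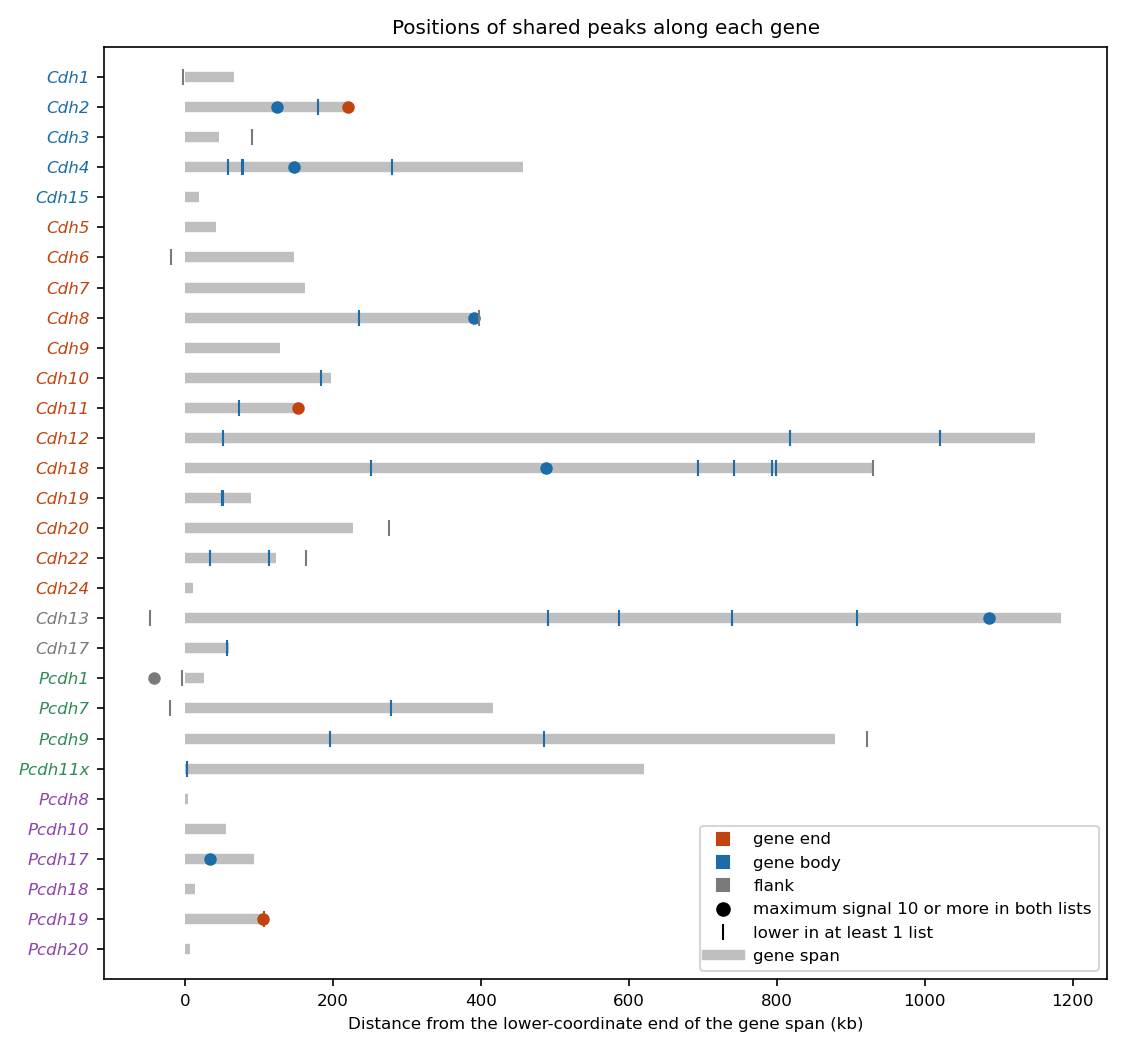
Positions of the shared peaks along each gene, as distance in kb from the lower-coordinate end of the gene span (grey bar), with 1 row per member. Circles mark the 10 peaks with a maximum signal of 10 or more in both lists, and Cdh11, Cdh2 and Pcdh19 have a peak at the end of the span.

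Among other type II cadherins, Cdh8, which is expressed by a type of bipolar cell among other neurons, had the peak of next best rank. It lay at chromosome 8, 99415503 to 99416261, inside the gene. Its replicate 1 interval was 210 bp and its replicate 2 interval 749 bp from the RefSeq start site. Maximum signals were 13 and 24, both intervals were flat, and they stood in the top 7.87% of replicate 1 and the top 21.2% of replicate 2. Cdh18 had 7 shared peaks over a span of 929 kb, the largest number of any member (6.81 per Mb). Its best, at chromosome 15, 23036430 to 23036873, covered the start site whose upstream sequence is printed above, but in replicate 1 only. The replicate 2 interval began 41 bp beyond this start site. This start site lies inside the gene span (22548898 to 23477491), and the peak lay 440840 bp from the nearer end. That peak had maximum signals of 14 and 19, and flat coverage in both lists. The Cdh18 start site was named after its values were seen.

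Cdh22, a type II cadherin of pituitary and brain, had 3 shared peaks, or 13.4 per Mb. None was strong in both lists: a flank peak nearer to Slc35c2 had maximum signals of 7 and 13, and the other two had 24 and 1, and 14 and 1. Cdh19, known from Schwann cell precursors, had 2 (10.5 per Mb), with maximum signals of 1 and 3 and of 1 and 2. These high densities therefore rested on 2 or 3 peaks with a single layer of coverage in at least 1 list, apart from the peak beside Slc35c2. Cdh5, which encodes VE-cadherin of blood vessels, had no shared peak in either its span or flanks, and neither had Cdh7, Cdh9 or Cdh24. The absence allowed up to 25.8, 14.0, 16.1 and 33.3 shared peaks per Mb respectively (upper exact Poisson limits).

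Cdh13, which encodes a cadherin anchored to the membrane by a lipid and lacking a cytoplasmic tail, had 6 shared peaks over the longest span of the family, 1185 kb, or 4.67 per Mb. The best, at chromosome 8, 119226411 to 119227193, lay 98127 bp inside the gene, with maximum signals of 11 and 20. The next, at 118879304 to 118879814, had 2 and 11. Cdh17, a cadherin of liver and intestine, had 1 shared peak, with identical ends in the 2 lists and maximum signals of 1 and 24.

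Delta protocadherins gave 11 shared peaks, of which 8 belonged to the delta-1 genes. Pcdh1 had the highest density of any member, 15.9 per Mb, from 2 peaks in a region of 0.126 Mb, both outside the gene. At chromosome 18, 38144839 to 38145077, 40956 bp from the gene, the maximum signals were 22 and 20. At 38182303 to 38183442, 3042 bp from the gene, they were 4 and 10. Pcdh7, Pcdh9 and Pcdh11x had 2, 3 and 1 shared peaks, each with a maximum signal of at most 5 in replicate 1 or at most 3 in replicate 2.

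Pcdh19, an X-linked delta-2 gene in which mutations cause an epilepsy of girls, had both of its shared peaks at its start site. One covered 133688997 to 133689097, with maximum signals of 11 and 30, and the other covered 133689228 to 133689771, with 7 and 26. The first joined intervals only 51 bp wide in replicate 1 and 75 bp wide in replicate 2, against genome medians of 303 and 321 bp. The first stood in the top 78.4% of replicate 1 and the top 55.0% of replicate 2, the second in the top 41.6% and the top 16.5%. Neither was uneven in either list. Pcdh17, of axon and synapse development, had 1 shared peak 34015 bp inside the gene (chromosome 14, 84477283 to 84477874), with 10 and 25. Pcdh8, Pcdh10, Pcdh18 and Pcdh20 had no shared peak, in regions of 0.105 to 0.156 Mb that allow up to 35.3, 23.6, 32.3 and 34.6 per Mb.

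**Figure D4:**
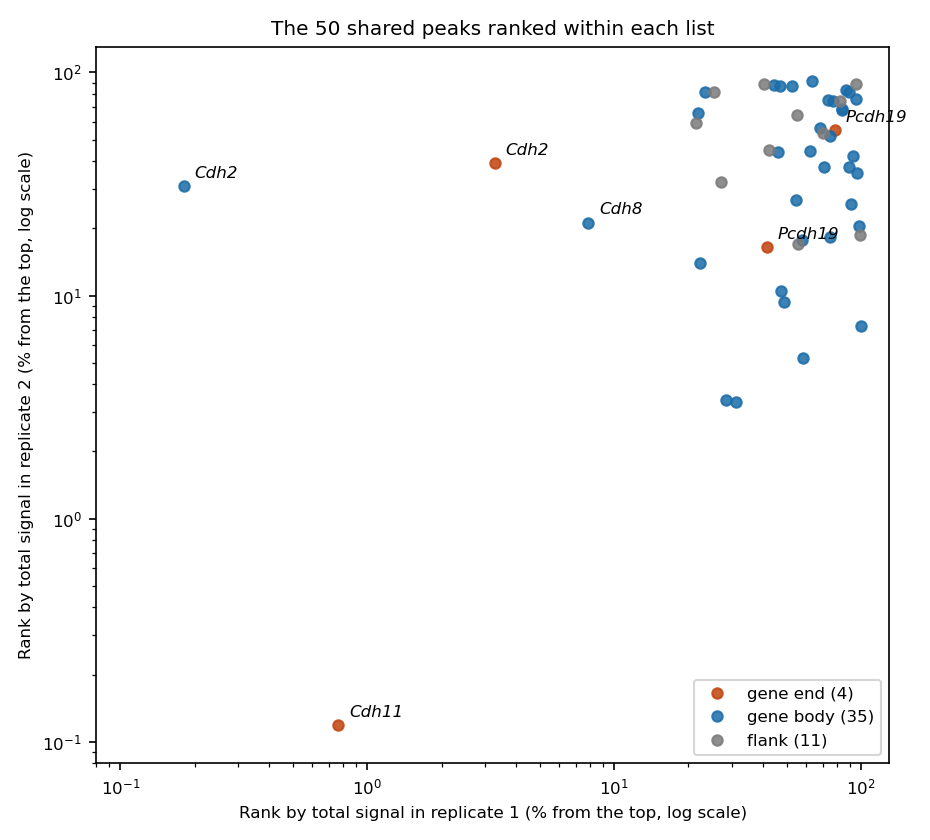
Each of the 50 shared peaks by its rank in the replicate 1 list (horizontal axis) and in the replicate 2 list (vertical axis), as per cent from the top by total signal on log scales, coloured by place. Cdh11 stands alone in the top 1% of both lists.

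A shared peak came within 1 kb of an end of the gene span for 3 of 30 members (10.0%), Cdh2, Cdh11 and Pcdh19. The background was 10.4% of all protein-coding genes and 12.8% of genes with a span of at least 100 kb. The count was 7 with a window of 2 kb and 0 with a reciprocal overlap of 50%. The shares over all genes at those settings were not computed, so these counts have no background. Start sites gave a like picture: 3 of the 19 members with a listed start site (15.8%), Cdh8, Cdh18 and Pcdh19, had a shared peak within 1 kb of one, against 10.3% of 17492 genes. In all, 4 of the 50 shared peaks lay at a member's end, 35 in a gene body and 11 in a flank, and 3 were nearer to the end of a gene that is no member.

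Single lists held many more intervals at the ends of these genes. In replicate 1, 11 of 30 members (36.7%) had an interval at a gene end, against 38.9% of all genes, and in replicate 2 it was 15 (50.0%) against 38.4%. Both lists had one for 5 members (16.7%), Cdh2, Cdh4, Cdh11, Pcdh8 and Pcdh19, against 19.3% of all genes. Among genes with a span of at least 100 kb the shares were 46.6% in replicate 1, 43.9% in replicate 2 and 24.0% in both. Near start sites rather than gene ends, the unshared interval of best rank lay 225 bp beyond the start site of Pcdh7, a delta-1 gene, at chromosome 5, 57718306 to 57719272, with its midpoint 2644 bp inside the gene span. Its maximum signal in replicate 1 was 53, it was uneven, and it stood in the top 0.0791% of that list. The nearest replicate 2 interval was 830 bp away, with a maximum signal of 22. At Pcdh10 the reverse held: a flat replicate 2 interval with a maximum signal of 29, in the top 1.34%, lay 460 bp before the start site, and the nearest replicate 1 interval, 844 bp away, had a maximum signal of 1. At Pcdh1 an uneven replicate 1 interval with a maximum signal of 32 overlapped the higher-coordinate end, and the nearest replicate 2 interval was 4404 bp away.

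Most shared peaks of the family were weak, as were most of the genome's, and each Wilson interval below includes the genome share. A maximum signal of 10 or more in both lists was found for 10 of 50 (20.0%, Wilson 95% interval 11.2 to 33.0), against 28.5% of all 13704 shared peaks. A maximum signal of 1 in at least 1 list was found for 23 (46.0%, 33.0 to 59.6), against 44.7%. Of the 50, 15 ranked among the best 5000 shared peaks (30.0%, 19.1 to 43.8, against 36.5%) and 1, that of Cdh11, among the best 1000 (2.00%, 0.354 to 10.5, against 7.30%). The ranks in the 2 lists correlated weakly over the 50 peaks (Spearman rho 0.142). The same correlation over all shared peaks was not computed.

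The share of intervals that recurred was close to that of the genome. In replicate 1, 10.7% (8.20 to 13.8) of the intervals in member regions overlapped replicate 2, against 11.5%, and in replicate 2 the share was 8.60% (6.60 to 11.1) against 8.91%. Among uneven intervals recurrence was 4 of 21 in replicate 1 (Wilson interval 7.67% to 40.0%), against 35.8% of the genome's. In replicate 2 it was 7 of 33 (10.7% to 37.8%) against 28.6%. The Wilson intervals of both lists include the genome share.

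The genes of the cadherins' cytoplasmic partners were counted in the same way, together with Ctnnbip1, which encodes a protein that binds beta-catenin. Of these 12 genes, the others of catenins and actin linkers, 9 had a shared peak (75.0%, against 55.4% of all genes and 76.9% of genes of long span). At a gene end 2 had one, Vcl and Ctnnbip1 (16.7%, against 10.4% and 12.8%). Vcl, which encodes vinculin, the linker that reinforces cadherin junctions under tension, had a peak at its gene end (chromosome 14, 20928440 to 20930065) with maximum signals of 109 and 37, uneven in both lists and ranked 96. Ctnnd2, which encodes the neuronal delta-catenin, had a pair uneven in both lists inside the gene with maximum signals of only 2 and 3. The Ctnnbip1 peak had 13 and 1. Ctnnb1, which encodes beta-catenin, had 1 shared peak, away from its ends. The partners had 4.69 shared peaks per Mb (3.06 to 6.87), and 18 immunoglobulin-type adhesion genes had 5.37 per Mb (3.96 to 7.13), with intervals that overlap that of the cadherin family.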

How the data were processed

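Build mm10 and the tools Bowtie2, SEACR, MACS2 and FastQC are listed, with neither role nor version, per the submitters' processing notes. The authors deposited 1 interval list per library whose 2 signal columns hold whole-number coverage, read from the layout as total and maximum signal, with no scaling apparent. The sources used here give no caller, threshold, control track, duplicate removal or region filter, and kept duplicates would raise the signal of amplified fragments.

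Only chromosomes 1 to 19, X and Y entered, with positions printed 1-based. Genome length was taken up to the last interval or gene of each chromosome, 2722 Mb in all. Counts were made with Python 3.11.15, pandas 2.3.3 and SciPy 1.17.1, with exact Poisson and Wilson 95% intervals, and were tested on simulated lists. The rank of a shared peak is that of its average rank by total signal over both lists. The 100 kb limit for long genes was chosen after the data were examined. Promoter sequences are RefSeq's (GRCm38.p6) and cover 19 of 30 members.

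Named were the 6 members with the most shared peaks per Mb, those with such a peak at a gene end or a pair uneven in both lists, those without a shared peak, and the 2 best peaks of each subfamily. Others were chosen after their values were seen. Members and lists were chosen with earlier results of these data known. The alternatives concern flank, window, overlap, signal threshold, evenness and single replicates.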

Additional observations from a re-analysis of the deposited data

How the results depend on the processing

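The ratio of shared peaks per Mb between member regions and genome stayed below 1 under all 9 alternatives. For peaks whose nearest gene is a member (0.850) this was fixed in advance, because only the member count was filtered and the genome value was not. The ratio left the Poisson interval of the reported value with a reciprocal overlap of 50% (0.586, from 14 peaks) and with midpoints within 200 bp (0.638, from 25). The ratio for all intervals was 0.908 with gene spans only and 0.922 with the stronger 50% of each list, and 0.925 to 0.936 with either replicate alone. Members with a pair uneven in both lists numbered 2 with a flank of 100 kb, Cdh11 and Cdh22, and 0 with a reciprocal overlap of 50%. Members whose gene end had a shared peak numbered 7 with a window of 2 kb and 0 with a reciprocal overlap of 50%, and 11 to 15 with intervals of a single replicate. Both counts thus fell to 0 under the stricter overlap. No share over all genes was computed at the other flank, window or overlap. These changes therefore cannot be called particular to the members. No paired analysis was possible because the series has 1 group. The number of peaks per gene, mostly 0 to 3, limits what can be said of single members.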

Other observations

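Cdh4 had 5 uneven intervals in replicate 2 and 0 in replicate 1, while Cdh2 had 4 in replicate 1 and 1 in replicate 2. Cdh18 had 1 uneven interval in replicate 1 and 6 in replicate 2. Those 6 had maximum signals of only 2 to 6, against 20 to 53 for the 5 of Cdh4. In replicates 1 and 2, 4.49% and 5.56% of the intervals in member regions were uneven, against 6.01% and 5.79% of the genome's. The difference between the lists in the counts per gene was not tested.

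Of the 30 members, 23 (76.7%) had an interval of at least 1 list within 1 kb of a gene end or a listed start site, against 60.9% of all protein-coding genes and 73.6% of those with a span of at least 100 kb. It was in replicate 1 only for 7 members (23.3%, against 19.7% and 22.8%), in replicate 2 only for 7 (23.3%, against 19.2% and 20.3%) and in both lists for 9 (30.0%, against 22.0% and 30.5%). A shared peak lay there for 5 members (16.7%, against 11.5% and 16.5%). The 7 without any were Cdh1, Cdh12, Cdh19, Cdh22, Cdh24, Pcdh18 and Pcdh20.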
